A study of Mus musculus with 4 samples.

Results

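The receptors for IL-1, IL-33, IL-36 and IL-18 are encoded side by side on mouse chromosome 1, and the open chromatin of this cluster was examined in T cells of a colorectal tumor and of the adjacent cecum. The cluster holds 6 genes (Il1r2, Il1r1, Il1rl2, Il1rl1, Il18r1 and Il18rap, in genomic order) of the 21888 genes counted. The rule that chose them was their place next to each other in 1 receptor family and used no measured value, though earlier results of these data were known. T cells were sorted 4 weeks after AKP tumor organoids were injected into the cecal wall of mice, from the tumor in 1 library and from tumor-free cecum in the other. Nuclei were profiled with the 10x multiome assay, which reads nuclear RNA and transposase-accessible DNA (ATAC) from the same nucleus, and only the ATAC fragments are analysed here. The authors clustered the RNA and carried 17 cluster labels over to the ATAC data of 7155 cecum and 8466 tumor cells. All cells come from mice that carried a tumor, the cecum samples are therefore not from healthy animals, and the strain and the number of mice behind each library are not given in the sources used here.

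Members of this family bind cytokines that are released by damaged or inflamed epithelial and myeloid cells. IL1R1 binds IL-1, IL1RL1 (ST2) binds IL-33 and IL1RL2 binds IL-36, and each of them signals together with the shared chain encoded by Il1rap, whereas IL18R1 binds IL-18 and signals together with IL18RAP. IL1R2 binds IL-1 without signaling and acts as a decoy. In gut T cells the IL-1 receptor is best known from type 17 cells, ST2 from type 2 helper (Th2) and regulatory T (Treg) cells, and the IL-18 receptor from type 1 cells.

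For each label and library, fragments with an end in the gene span plus 5 kb on each side were counted and scaled to 1000000 fragments of that label (fragments per 1000000, FPM). On GRCm38 the windows run on chromosome 1 from 40079692 at Il1r2 to 40556707 behind Il18rap, 477 kb in all. The windows of Il1rl1 and Il18r1 share 9.87 kb, those of Il1r1 and Il1rl2 share 1.61 kb, the Il1r2 window also holds the noncoding gene Gm16894, and the Il1rl2 window holds the pseudogene Gm17970. Where leaving out the shared bases changes a call in a comparison below, the value without them is given there. The bases shared by Il1rl1 and Il18r1 hold the Il18r1 start and all its promoters. Il18r1 without shared bases is thus counted without its promoters. The libraries held 66466111 fragments (cecum) and 96747563 fragments (tumor), of which 66.2% and 64.3% came from labelled cells. Cell types were ranked over the 16 labels with at least 50 cells in both libraries. The label PD1+ CD4 held 14 cecum and 616 tumor cells, and these are described for the tumor alone. The smallest labels were Th2 with 90 and 58 cells (568803 and 438981 fragments) and, in the cecum, newly activated CD4 with 77 cells (426832 fragments).

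Intervals are exact, at 95%, and include no error other than that of counting. There was 1 library per tissue, so no test was run, no p-value is given, and tissue and library cannot be told apart. A ratio between cell types was called only where its interval lay on the same side of 0 (log2 scale) in both libraries. Labelled barcodes were shared by the 2 libraries in 84 cases. Marker windows followed the labels for most types. Foxp3 led in the IL-10+ Treg label (102 and 79.2 FPM in cecum and tumor), with the IL-10- label next (97.3 and 76.0 FPM), whereas Il2ra, also a Treg marker, led in Rorgt gdT (226 and 231 FPM) and Th2 cells (192 and 196 FPM), Gata3, Il4, Il5 and Il13 led in Th2 cells of both libraries, and Trdc led in Cytotoxic gdT cells. Pdcd1 and Tox went against the PD1+ CD8 label, in which they were at ranks 6 to 8 of 17. No Th1 marker led in Mucosal Th1 cells. Tbx21 was highest in Cytotoxic CD8 cells, and Ifng (48.6 and 53.6 FPM) and Cxcr3 (58.6 and 58.0 FPM) in PD1+ CD8 cells. Mucosal Th1 cells were second for Ifng in the cecum (45.7 FPM). Gene lists of other cell types that a sort could hold stood below the T cell genes in every type. Summed over each list and per kb of window, the 6 myeloid genes gave 0.230 to 0.496 FPM, the 6 B cell genes 0.205 to 0.338 FPM and the 10 epithelial genes 0.266 to 0.630 FPM, beside 3.30 to 5.20 FPM for the 6 T cell genes. The 6 mast cell genes, a relevant list because mast cells carry ST2, gave 0.451 to 1.43 FPM and were highest in Innate-like T#1 cells. In IL-10- Treg cells they gave 0.583 FPM (cecum) and 0.630 FPM (tumor), and in Th2 cells 0.732 and 0.822 FPM. Rorgt gdT cells had 1.07 and 0.712 FPM and Cytotoxic gdT cells 0.787 and 0.729 FPM. In each of these lists of other cells at least 1 gene had no fragment in some type, and their part in the results was not tested.

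RefSeq annotates 10 promoters for the 6 genes, each taken as 250 bases before to 50 bases after a transcription start on the plus strand of GRCm38.p6. Promoters whose accessibility separated Treg subsets or gamma-delta T cell types in both libraries are printed (both of Il1r1, Il1rl1 promoter 1 and Il18r1 promoter 2), with that of Il18rap because its window separated the Treg subsets. Capitals mark every match, on either strand, to a GATA motif (GATA after A or T and before A or G), an AP-1 motif (TGANTCA), a ROR motif (AGGTCA), a RUNX motif (TGTGGT) or a T-box motif (AGGTGTGA). No matches overlapped in the printed sequences, and those of Il1r1 hold none.
Il1r1 promoter 1 (chr1:40224830-40225129, plus strand): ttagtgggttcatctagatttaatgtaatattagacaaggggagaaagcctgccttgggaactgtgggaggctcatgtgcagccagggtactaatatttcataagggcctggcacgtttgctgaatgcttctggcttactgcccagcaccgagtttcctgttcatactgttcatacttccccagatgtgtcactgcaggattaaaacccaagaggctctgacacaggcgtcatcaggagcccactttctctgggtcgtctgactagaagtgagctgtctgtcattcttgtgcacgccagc
Il1r1 promoter 2 (chr1:40266336-40266635, plus strand): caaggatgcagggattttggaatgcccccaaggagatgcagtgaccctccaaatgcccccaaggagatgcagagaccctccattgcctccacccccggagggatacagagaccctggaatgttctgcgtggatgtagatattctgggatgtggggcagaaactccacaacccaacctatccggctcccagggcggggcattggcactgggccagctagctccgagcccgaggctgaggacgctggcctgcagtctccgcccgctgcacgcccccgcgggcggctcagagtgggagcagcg
Il1rl1 promoter 1 (chr1:40429320-40429619, plus strand): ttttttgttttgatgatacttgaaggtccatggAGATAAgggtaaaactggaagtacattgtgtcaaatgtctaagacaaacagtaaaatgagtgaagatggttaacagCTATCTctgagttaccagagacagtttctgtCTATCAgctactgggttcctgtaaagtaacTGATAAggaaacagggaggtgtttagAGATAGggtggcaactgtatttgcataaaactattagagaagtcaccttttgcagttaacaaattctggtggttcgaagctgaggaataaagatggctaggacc
Il18r1 promoter 2 (chr1:40465371-40465670, plus strand): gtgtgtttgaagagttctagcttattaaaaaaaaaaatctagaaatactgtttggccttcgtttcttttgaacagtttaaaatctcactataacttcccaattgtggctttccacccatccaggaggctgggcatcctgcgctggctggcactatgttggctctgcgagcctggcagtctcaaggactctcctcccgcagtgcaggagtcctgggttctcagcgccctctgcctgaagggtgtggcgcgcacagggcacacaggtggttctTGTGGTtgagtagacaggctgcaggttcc
Il18rap promoter 1 (chr1:40515112-40515411, plus strand): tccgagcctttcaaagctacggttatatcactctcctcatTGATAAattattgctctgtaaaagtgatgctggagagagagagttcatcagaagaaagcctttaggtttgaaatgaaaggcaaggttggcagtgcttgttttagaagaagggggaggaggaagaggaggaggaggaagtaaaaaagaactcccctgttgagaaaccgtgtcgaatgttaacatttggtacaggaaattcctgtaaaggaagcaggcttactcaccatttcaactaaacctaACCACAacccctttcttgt

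In Il1rl1 promoter 1 the capitals are 5 GATA matches that begin at positions -217, -141, -110, -80 and -54 from the start site. Il18r1 promoter 2 holds 1 RUNX match (22), and the Il18rap promoter holds 1 GATA match (-210) and 1 RUNX match (32). Over the 32851 promoters in the RefSeq table, a GATA match was present in 29.8%, a RUNX match in 16.8%, a ROR match in 16.3%, an AP-1 match in 7.81% and a T-box match in 1.28%. Among the 10 promoters of the cluster the numbers were 4 with GATA, 4 with RUNX, 1 with ROR and 0 with AP-1 or T-box. At least 5 GATA matches, as in Il1rl1 promoter 1, occurred in 18 promoters (0.0548%). A match is a string of letters and does not show binding.

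Il1r1, the signaling receptor for IL-1, had the most cell-type-restricted accessibility of the cluster. Its level was highest in Rorgt gdT cells (279 FPM in the cecum, 275 FPM in the tumor), a gamma-delta T cell label. Th17 cells followed with 212 and 192 FPM, and IL-10+ Treg cells with 82.5 and 95.3 FPM. The lowest level was in CD8aa cells (2.32 and 6.07 FPM), and the median over the 16 types was 22.3 and 25.1 FPM, so that the leading type stood 12.5 and 11.0 times above the median. Rorgt gdT cells were also above Th17 cells, with log2 ratios of 0.40 (cecum, 0.16 to 0.64) and 0.52 (tumor, 0.34 to 0.70). The same 3 cell types took the same places in both libraries, and the levels over the 16 types, as log2(FPM + 1), correlated between the libraries with Pearson's r = 0.985.

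Il1r2, the decoy receptor, was highest in Th17 cells of both libraries, with 64.3 FPM (cecum) and 99.6 FPM (tumor). In the cecum IL-10- Treg cells (52.7 FPM) and Th2 cells (47.5 FPM) came next and could not be separated from Th17 cells by counting error. In the tumor IL-10+ Treg cells (73.3 FPM) and Th2 cells (66.1 FPM) followed, and the ratio of Th17 to IL-10+ Treg cells was 0.44 (0.16 to 0.72) on the log2 scale. The median over types was 18.8 and 20.2 FPM. The lowest types were CD8aa in the cecum (6.50 FPM) and CCR7+ CD8 in the tumor (6.76 FPM). The lowest type of each library thus carried a CD8 label, in the tumor from 6 fragments, and the highest types named here helper or Treg labels. The types between them did not divide in this way. In the tumor CCR7+ CD4 cells (12.3 FPM) lay below PD1+ CD8 cells (14.5 FPM), and Cytotoxic CD8 cells (21.0 FPM) above Mucosal Th1 cells (19.3 FPM).

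These 2 IL-1 receptors were the members that kept 1 leading type in both libraries, 2 of 6, beside 26.8% of the 15217 genes with enough fragments. Both stood at 2 or more times the median over types, a pattern that 6.25% of genes showed. Without the bases shared between windows 4 members kept 1 leading type, since Il1rl1 was then led by Th2 cells and Il1rl2 by CCR7+ CD4 cells in both libraries.

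Il1rl1, the receptor for IL-33, was highest in IL-10- Treg cells of the cecum (124 FPM) and in Th2 cells of the tumor (169 FPM). The other type of this pair came next in each library, Th2 cells with 120 FPM in the cecum and IL-10- Treg cells with 133 FPM in the tumor, and the interval of the ratio between them held 0 in both (0.05, -0.32 to 0.45, and 0.34, -0.03 to 0.68). Th17 cells came next with 89.6 and 97.5 FPM, the median was 56.4 and 55.9 FPM, and CD8aa cells were lowest with 11.6 and 15.6 FPM. The far end of this window covers the start of Il18r1, and without the shared bases the gene was more restricted. In that window of 60.7 kb, Th2 cells had 109 and 139 FPM and IL-10- Treg cells 89.6 and 93.2 FPM. Th17 cells (44.8 and 55.1 FPM) and IL-10+ Treg cells (41.2 and 55.0 FPM) were well below them, and the median was 17.4 and 22.8 FPM.

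Il18r1, which binds IL-18, was accessible in every label and differed least between them. Per kb of window it had the highest median of the cluster, 2.19 FPM per kb in the cecum and 2.41 in the tumor, beside 0.799 and 0.792 for Il1rl1, 0.730 and 0.784 for Il18rap, 0.372 and 0.399 for Il1r2, 0.286 and 0.342 for Il1rl2 and 0.215 and 0.242 for Il1r1. Without the bases shared with Il18r1, Il1rl1 had 0.287 and 0.376, below Il18rap and Il1r2, and Il18r1 had 2.09 and 2.17. Over its whole window the highest levels in the cecum were 146 FPM in Th17 cells, 142 FPM in Rorgt gdT cells and 131 FPM in IL-10- Treg cells. Those of the tumor were 131 FPM in newly activated CD4 cells, 129 FPM in Th17 cells and 122 FPM in Rorgt gdT cells. Tfh-like cells were lowest (68.0 and 67.8 FPM). The leading type was 1.47 and 1.20 times the median, and no neighbours in the order of levels (15 of 15 pairs in each library) differed beyond counting error.

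Il18rap, the chain that IL-18 signaling needs beside IL18R1, was highest in Th2 cells of the cecum (61.5 FPM), followed by Rorgt gdT cells (53.6 FPM) and the IL-10- Treg label (49.7 FPM). In the tumor IL-10- Treg cells (62.0 FPM), Th2 cells (57.0 FPM) and Innate-like T#2 cells (50.4 FPM) led among the 16 types. The lowest levels were 12.2 FPM in Tfh-like cells of the cecum and 18.7 FPM in Innate-like T#1 cells of the tumor, with medians of 33.8 and 36.3 FPM. The order was only loosely resolved, since no neighbouring pair differed beyond counting error. Mucosal Th1 cells, at 43.0 and 47.9 FPM, were not separated from the leading type in either library.

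Il1rl2, the receptor for IL-36, reached 26.0 FPM in CCR7+ CD4 cells of the cecum and 24.9 FPM in Innate-like T#2 cells of the tumor, where CCR7+ CD4 cells had 24.7 FPM. CD8aa cells were lowest with 5.57 and 11.3 FPM, and the medians were 15.2 and 18.1 FPM. In the cecum 6 types and in the tumor 9 types could not be separated from the leading one, and the correlation of the levels between libraries was r = 0.672, the lowest of the cluster.

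**Figure D1:**
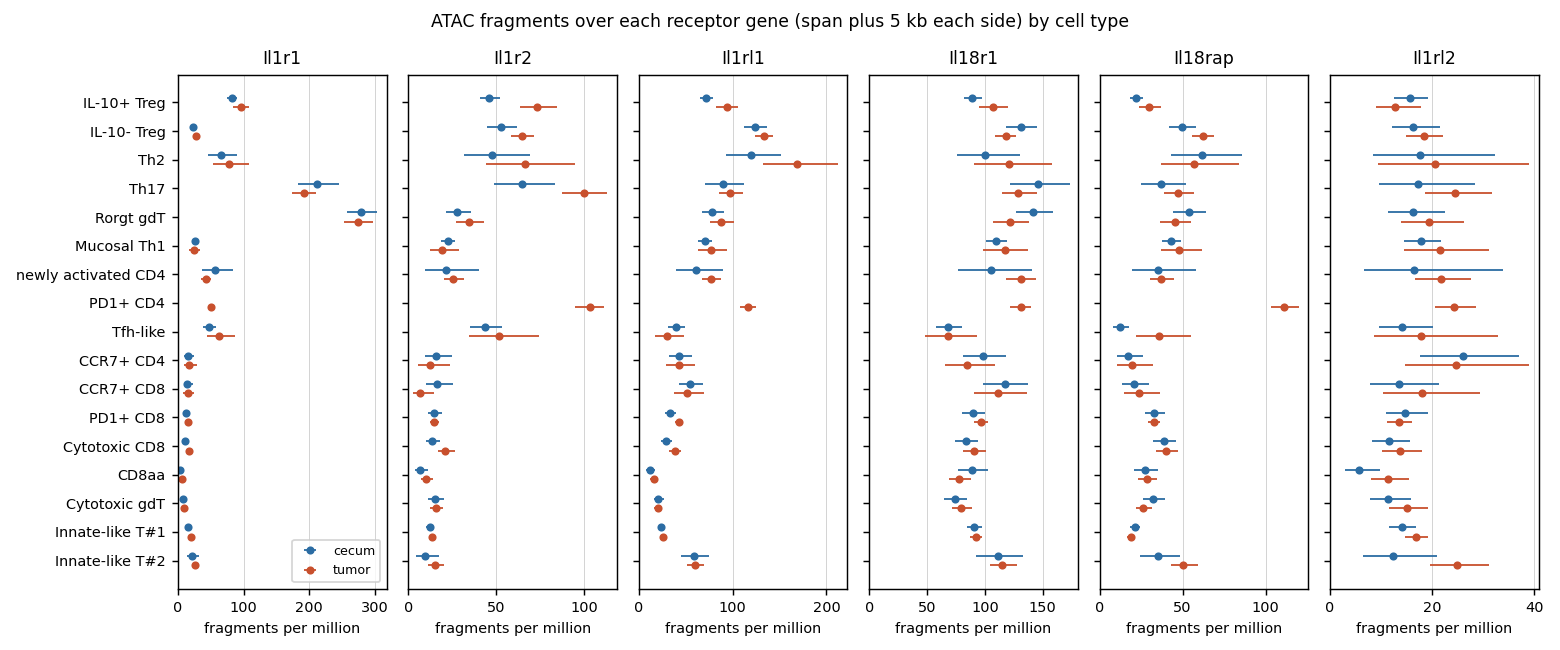
Fragments per 1000000 (FPM) over each receptor gene with 5 kb on each side (x axis, linear, a scale of its own in each panel) for 17 cell types (y axis), with the cecum in blue, the tumor in red and exact 95% counting intervals as bars. Il1r1 stands out in Rorgt gdT and Th17 cells (192 to 279 FPM), Il18r1 is at 67.8 FPM or more in every cell type shown, and PD1+ CD4 cells, plotted for the tumor alone, carry the highest Il18rap level.

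PD1+ CD4 cells of the tumor, which were too few in the cecum to be ranked there, held the highest level of 3 of the 6 genes among the 17 labels. Of 15963 genes, 4.39% were highest in this label. The label was added after its values were seen, so this number of members is a description only. Il18rap had 111 FPM (681 fragments) in these cells, above the 62.0 FPM of IL-10- Treg cells by a log2 ratio of 0.84 (0.65 to 1.03). Il1r2 with 103 FPM (631 fragments) and Il18r1 with 131 FPM were highest by value but not separated from Th17 cells (0.04, -0.17 to 0.27) and newly activated CD4 cells (0.00, -0.17 to 0.18). Il1rl1 had 116 FPM and ranked behind Th2 and IL-10- Treg cells, Il1r1 had 51.0 FPM at rank 6, and Il1rl2 had 24.3 FPM. In the label check, PD1+ CD4 cells were at rank 2 of 17 for Pdcd1 (230 FPM) and Tox (359 FPM) and also for Tbx21 (151 FPM), Gata3 (210 FPM) and Il13 (51.9 FPM). The other Th1 markers ranked lower, with Ifng at rank 6 (40.0 FPM) and Cxcr3 at rank 9 (45.3 FPM). So did the other Th2 markers, with Il4 at rank 3 (21.6 FPM) and Il5 at rank 5 (7.98 FPM). The 14 cecum cells of this label gave 2 (Il1rl2) to 8 fragments (Il18r1) over a member, too few to compare its levels between tissues.

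The first contrast asked how the receptor genes differ between the 2 Treg subsets that the study separated by IL-10. Il1r1 was lower and Il1rl1 and Il18rap were higher in IL-10- than in IL-10+ Treg cells of cecum and tumor. For Il1r1 the levels of the IL-10- and the IL-10+ subset were 23.0 and 82.5 FPM (cecum) and 27.2 and 95.3 FPM (tumor), log2 ratios of -1.84 (-2.23 to -1.48) and -1.81 (-2.10 to -1.52). For Il18rap they were 49.7 and 21.7 FPM (cecum) and 62.0 and 29.7 FPM (tumor), with ratios of 1.19 (0.84 to 1.55) and 1.06 (0.71 to 1.43). For Il1rl1 they were 124 and 71.8 FPM (cecum) and 133 and 93.8 FPM (tumor), with ratios of 0.79 (0.58 to 0.99) and 0.51 (0.30 to 0.72), or 1.12 (0.87 to 1.38) and 0.76 (0.50 to 1.03) without the bases shared with Il18r1. When 1 kb around either gene end was counted in place of the window, 0 members were called, and the tumor ratios turned to 2.43 for Il1r1 and -0.43 for Il1rl1. These gene-end windows leave out the promoters of Il1r1 and Il1rl1, and that at the Il1rl1 end covers the Il18r1 promoters. With the whole window the IL-1 receptor gene thus ran opposite to the IL-33 receptor gene and to the accessory chain of the IL-18 receptor.

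Il18r1 was higher in IL-10- Treg cells of the cecum (131 against 89.1 FPM, 0.55, 0.36 to 0.75), while in the tumor the interval held 0 (118 against 107 FPM, 0.15, -0.05 to 0.35). The decoy gene Il1r2 was not separated between the subsets in either library (52.7 against 45.9 FPM in the cecum and 64.6 against 73.3 FPM in the tumor, ratios of 0.20 and -0.18), and neither was Il1rl2. Of all 14409 genes tested in this contrast, 7.54% were higher and 5.94% lower in IL-10- Treg cells by the interval rule. A 2-fold difference in both libraries, computed with a pseudocount of 1 FPM, was seen for 1.30% (higher) and 0.278% (lower) of genes. Il18rap (higher) and Il1r1 (lower) met that stricter rule.

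Between helper cells, the IL-1 and IL-33 receptor genes were more accessible in Th2 than in Mucosal Th1 cells, whereas the IL-18 receptor genes were not separated. Il1r1 had 65.0 and 77.5 FPM in Th2 cells of cecum and tumor and 25.2 and 23.9 FPM in Mucosal Th1 cells, log2 ratios of 1.37 (0.80 to 1.90) and 1.69 (0.95 to 2.45). Il1r2 had 47.5 and 66.1 FPM against 22.2 and 19.3 FPM (1.10, 0.44 to 1.71, and 1.78, 0.95 to 2.61). Il1rl1 had 120 and 169 FPM against 70.5 and 77.2 FPM, ratios of 0.76 (0.37 to 1.14) and 1.13 (0.67 to 1.57), and 1.58 (1.15 to 2.0) and 1.94 (1.36 to 2.52) without the shared bases. Il18r1 was at 100 and 121 FPM against 110 and 117 FPM, and Il18rap at 61.5 and 57.0 FPM against 43.0 and 47.9 FPM, with intervals that held 0 (0.52, -0.04 to 1.03, and 0.25, -0.48 to 0.94, for Il18rap). Th2 cells gave 35 and 25 fragments over Il18rap, so that differences within these intervals were not detectable at this depth. Of the Th2 fragments over Il1r1, 20 of 37 and 13 of 34 lay in 1 tile 4.66 kb after the start of promoter 2 (chr1:40271001-40271500), and both Il1r1 promoters had 0 Th2 fragments in either library. In 1 kb around either gene end 0 members were higher in Th2 cells, and the ratio turned to -1.96 for Il1rl1 in the cecum and to -0.44 for Il1r1 in the tumor. The gene-end windows of Il1rl1 cover the Il18r1 promoters and not those of Il1rl1. By the interval rule 3 members were higher in Th2 cells with the whole window, beside 2.23% of 10900 genes, and 0 lower, beside 1.99%. Past 2-fold were Il1r2 and Il1r1 of the 5 members with enough fragments, beside 0.440% of genes (0.560% in the other direction). Without the shared bases Il1rl1 was past 2-fold as well (1.58 and 1.94).

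Th17 and Mucosal Th1 cells differed at the pair of IL-1 receptor genes. Il1r1 had 212 and 192 FPM in Th17 cells against 25.2 and 23.9 FPM, log2 ratios of 3.07 (2.75 to 3.41) and 3.0 (2.47 to 3.58). Il1r2 had 64.3 and 99.6 FPM against 22.2 and 19.3 FPM, ratios of 1.54 (1.05 to 2.01) and 2.37 (1.77 to 3.03). Signaling receptor and decoy were thus both more accessible in Th17 cells. In 1 kb around either gene end, which leaves out the promoters of Il1r2 and Il1r1, 1 member was higher in Th17 cells. Il1rl1 (0.35, -0.03 to 0.70, and 0.34, -0.01 to 0.69), Il18rap (-0.23, -0.81 to 0.31, and -0.03, -0.49 to 0.45) and Il1rl2 were not separated, and Il18r1 was higher in Th17 cells of the cecum alone (0.41, 0.12 to 0.69, and 0.15, -0.14 to 0.44, in the tumor). Without the bases shared with Il18r1, Il1rl1 was higher in Th17 cells of the tumor alone (0.30, -0.24 to 0.80, in the cecum and 0.60, 0.11 to 1.12). Beside these 2 members, 3.27% of 12958 genes were higher in Th17 cells and 2.85% lower, and 0.833% and 0.278% were past 2-fold. Both members were past 2-fold.

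Of the 5 contrasts, that between the gamma-delta labels held the largest ratio. Il1r1 had 279 and 275 FPM in Rorgt gdT cells and 7.98 and 9.78 FPM in Cytotoxic gdT cells, log2 ratios of 5.13 (4.54 to 5.78) and 4.81 (4.35 to 5.31). Il1rl1 followed with 78.2 and 87.5 FPM against 20.9 and 20 FPM, ratios of 1.90 (1.47 to 2.34) and 2.13 (1.75 to 2.52), and 1.41 (0.80 to 2.05) and 1.76 (1.24 to 2.30) without the shared bases. Il1r2 (0.89, 0.31 to 1.48, and 1.15, 0.65 to 1.65) and Il18rap (0.73, 0.33 to 1.14, and 0.78, 0.37 to 1.19) were also higher in Rorgt gdT cells of both libraries. Il18r1 was called with the whole window (0.94, 0.68 to 1.19, and 0.61, 0.37 to 0.85), but not without the bases it shares with Il1rl1, where the tumor ratio was 0.09 (-0.19 to 0.37). Those shared bases hold the Il18r1 promoters, of which promoter 2 was higher in Rorgt gdT cells (1.32 and 1.87). Of the 6 members 5 were therefore higher by the interval rule, or 4 without shared bases, and 0 lower, beside 9.35% and 12.4% of 13618 genes. With fragments shorter than 150 bp 3 members were higher. In 1 kb around either gene end, which leaves out the Il1r2 promoter, the cecum ratio of Il1r2 turned to -0.18. Il1r1 and Il1rl1 were past 2-fold, as were 2.96% of genes, with 1.80% in the other direction.

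The CD8 labels, compared as PD1+ CD8 over CCR7+ CD8 cells, differed at no member in both libraries. In 13705 genes the shares were 5.46% higher and 5.71% lower, and 1.64% and 0.890% past 2-fold. In the cecum alone Il1rl1 (33.0 against 54.3 FPM, -0.72, -1.16 to -0.27) and Il18r1 (89.4 against 117 FPM, -0.38, -0.67 to -0.09) were lower and Il18rap was higher (32.8 against 20.5 FPM, 0.68, 0.06 to 1.35) in PD1+ CD8 cells. Without the bases that Il1rl1 and Il18r1 share, neither was separated, with ratios of -0.11 (-0.90 to 0.74) and -0.17 (-0.51 to 0.18). For Il18r1 this count leaves out its promoters. The cecum ratio of Il18rap turned to -0.20 in 1 kb around either gene end and to -0.46 with the mean over cells. The intervals of all 6 genes held 0 in the tumor, where that of Il18rap was -0.17 to 1.18. CCR7+ CD8 cells gave 21 and 6 fragments over Il1r2, which sets the width of its intervals.

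**Figure D2:**
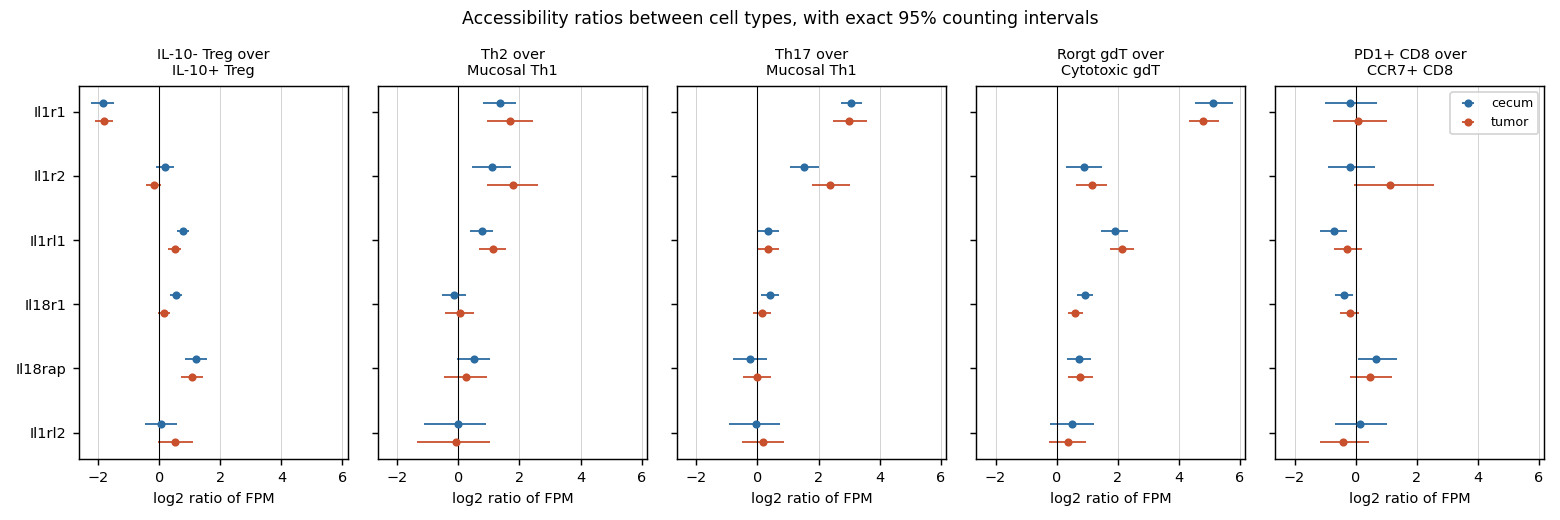
Log2 ratios of FPM for the 6 receptor genes (y axis) in the 5 contrasts between cell types (panels), with cecum in blue, tumor in red and exact 95% counting intervals as bars; the vertical line marks equal levels. Il1r1 lies left of the line in the Treg panel (-1.84 and -1.81) and far right of it in the gamma-delta panel (5.13 and 4.81), while Il18r1 stays within 1 log2 unit of the line in all panels.

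The cluster was also cut into 955 tiles of 500 bp to see where along it the accessibility lies. Tiles were sparse, with medians of 5 (cecum) and 8 fragments (tumor), and the 20 fullest tiles held 38.4% and 36.8% of all fragments. With at least 20 fragments in each library, 151 tiles could be ranked, and 44 of them had the same leading cell type in both. Across the genome 17.9% of 264831 such tiles did. Rorgt gdT cells led 21 of these 44 tiles, Th2 cells 9, IL-10- Treg cells 5 and Th17 cells 3. Of all genome tiles ranked, Rorgt gdT cells led 1.35% in both libraries, Th2 cells 2.73%, IL-10- Treg cells 1.02% and Th17 cells 0.756%, shares to be set beside these counts over 151 tiles. Tiles next to each other share fragments whose ends fall in both, so they are not independent.

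Over both libraries together, the fullest tile of the gene windows lay inside Il18r1, 13.7 kb after its start (chr1:40479501-40480000), with 745 and 1256 fragments and a median over types of 16.1 and 19.8 FPM. It was open in every type, from 4.71 FPM upwards in the cecum and from 15.3 FPM in the tumor. For Il1r1 the fullest tile lay 4.66 kb after the start of promoter 2 (chr1:40271001-40271500) and was shared by Th2 cells (35.2 and 29.6 FPM), Th17 cells (28.7 and 29.1 FPM) and Rorgt gdT cells (25.9 and 22.1 FPM). The fullest tiles of Il1r2, Il1rl2 and Il18rap overlapped their promoters. That of the Il1rl1 window lay in the bases shared with Il18r1 and overlapped the Il18r1 promoters.

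In the Treg contrast 52 tiles of the cluster had at least 20 fragments over both subsets in each library. IL-10- Treg cells were higher in 6 and lower in 4 of them, beside 3.37% and 3.29% of 74601 tiles of the genome. With at least 50 fragments the counts were 1 and 1, and with fragments shorter than 150 bp 1 and 0. By gene window, 3 of the higher tiles lay in Il1rl1 and 2 in Il18rap, and of the lower ones 3 lay in Il1r1 and 1 in Il1rl1 (chr1:40445001-40445500). Several of these tiles reached the minimum through the subset in which they were high, so the numbers are a description only. The highest ratio came from a tile inside Il1rl1, 3.82 kb before its promoter 1 start (chr1:40425501-40426000), with 25 fragments (8.33 FPM) in IL-10- and 1 fragment (0.175 FPM) in IL-10+ Treg cells of the cecum and 43 (7.41 FPM) and 1 (0.367 FPM) in the tumor, which gave log2 ratios of 5.57 (2.96 to 10.93) and 4.34 (1.78 to 9.67). Th2 cells were the only other type of the 16 with a level over 1 FPM there (3.52 and 2.28 FPM, from 2 fragments and 1 fragment).

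The adjoining tile (chr1:40425001-40425500) had 20 fragments against 0 in the same order in the cecum and 32 against 1 in the tumor (3.91, 1.33 to 9.26). The cecum log2 ratio was 3.67 when 0 is replaced by 3 fragments, with an interval that began at 3.23. Another tile lay inside Il18rap, 13.9 kb after its start (chr1:40529001-40529500), with 13.3 against 1.05 FPM in the cecum and 11.5 against 1.10 FPM in the tumor, ratios of 3.67 (2.42 to 5.19) and 3.39 (1.78 to 5.71). Th2 cells were close to IL-10- Treg cells in this tile (12.3 and 11.4 FPM), and the next type had 2.34 and 2.67 FPM.

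All 3 Il1r1 tiles that were lower in IL-10- Treg cells lay around its promoter 2. One overlapped that promoter (chr1:40266501-40267000; -4.16, -9.50 to -1.58, and -3.83, -6.22 to -2.07). Another lay 3.84 kb before its start (chr1:40262501-40263000; -4.24, -9.58 to -1.67, and -2.18, -3.60 to -0.89), and the third was the fullest tile of the gene (-1.85, -3.13 to -0.77, and -1.41, -2.13 to -0.70). These tiles were also open in Rorgt gdT and Th17 cells, which had 20.3 and 11.5 FPM (cecum) and 12.7 and 9.40 FPM (tumor) in the tile before the promoter.

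The gamma-delta contrast had the most called tiles of the 5 contrasts. Of 41 tiles tested, 21 were higher in Rorgt gdT cells and 1 was lower, beside 7.33% and 6.97% of 56648 tiles of the genome. Such counts depend on the settings. Taking all contrasts and the leading types together, 9 tile counts moved and 2 kept with at least 50 fragments. With fragments shorter than 150 bp, likewise, 9 moved and 2 kept. By gene window, 10 of the higher tiles lay in Il1r1, 1 in Il18rap and 3 in the bases shared by Il1rl1 and Il18r1. Cytotoxic gdT cells gave 24 and 41 fragments over the whole Il1r1 window, so that its tiles reached the minimum through Rorgt gdT cells and their number is a description only. One of the steepest lay 3.34 kb before promoter 2 of Il1r1 (chr1:40263001-40263500), with 24.5 and 19.8 FPM in Rorgt gdT cells and 1 fragment in Cytotoxic gdT cells of each library, ratios of 6.20 (3.66 to 11.53) and 6.37 (3.82 to 11.71). A tile at promoter 1 (chr1:40225001-40225500) had ratios of 5.94 (3.38 to 11.27) and 6.41 (3.85 to 11.74).

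Helper contrasts had fewer fragments. Over Th2 and Mucosal Th1 cells 8 tiles could be compared, of which 1 was higher (0.894% of 23724 genome tiles) and 1 lower (1.11%). The higher one lay 29.8 kb before promoter 1 of Il1rl1 (chr1:40399501-40400000; 1.37, 0.19 to 2.41, and 1.69, 0.38 to 3.01). Of 26 tiles over Th17 and Mucosal Th1 cells, 3 were higher in Th17 cells and 1 lower, beside 1.52% and 1.18% of 43762 genome tiles. They lay 1.34 kb before the Il1r2 start (chr1:40084501-40085000; 3.92, 2.47 to 5.57, and 3.19, 1.22 to 6.30) and at 2 places in Il1r1, the fullest tile and one 2.16 kb after the promoter 2 start (chr1:40268501-40269000; 3.96, 2.63 to 5.46, and 2.26, 0.56 to 4.63). Over PD1+ and CCR7+ CD8 cells, 17 tiles were tested, 4 were higher in PD1+ CD8 cells and 0 lower, beside 3.13% and 2.59% of 57582 genome tiles. Several higher tiles of the Th17 and CD8 comparisons reached the minimum mainly through the label in which they were high, so these numbers too are a description only.

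A tile between Il1rl2 and Il1rl1, outside every gene window, was called in 4 of the 5 contrasts. It was named for its extreme ratios, and each time the label with the higher level passed the minimum alone. The Th2 and Th17 contrasts also share the Mucosal Th1 cells. These calls are thus not separate support and are a description only, and the share of genome tiles called as often was not counted. In this tile, 43.3 kb before promoter 1 of Il1rl1 (chr1:40386001-40386500), newly activated CD4 cells were highest in the cecum (30.5 FPM from 13 fragments), while Mucosal Th1 cells had 22.7 and 23.9 FPM, PD1+ CD8 cells 21.9 and 18.4 FPM and Cytotoxic gdT cells 15.0 and 17.7 FPM. The median over types was 7.89 and 9.86 FPM. Th2 cells (3.52 and 4.56 FPM), Rorgt gdT cells (5.55 and 2.82 FPM) and IL-10- Treg cells (3.33 and 8.44 FPM) lay below it in both libraries, and Th17 cells (9.19 and 5.13 FPM) above it in the cecum and below it in the tumor. It was the lower tile of the Th2 contrast (-2.69, -5.76 to -0.81, and -2.39, -5.50 to -0.42), of the Th17 contrast (-1.31, -2.55 to -0.28, and -2.22, -3.32 to -1.22) and of the gamma-delta contrast (-1.43, -2.48 to -0.49, and -2.64, -4.14 to -1.45). CCR7+ CD8 cells were below PD1+ CD8 cells there (2.36 and 3.38 FPM from 3 fragments each), with ratios of 3.21 (1.62 to 5.52) and 2.44 (0.87 to 4.73). Other tiles between these genes had other orders, and the one 48.3 kb before promoter 1 of Il1rl1 (chr1:40381001-40381500) was led by Rorgt gdT cells (21.3 and 23.5 FPM). A tile 36.3 kb before promoter 1 of Il1rl1 (chr1:40393001-40393500), was likewise higher in PD1+ CD8 cells (3.29, 1.69 to 5.59, and 2.09, 0.70 to 3.98) but was open in Th2, Th17 and Mucosal Th1 cells alike (29.9, 26.4 and 26.3 FPM in the cecum). Whether these tiles lie in regulatory elements of a member was not examined, and exons and introns are not given in the gene table used.

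**Figure D3:**
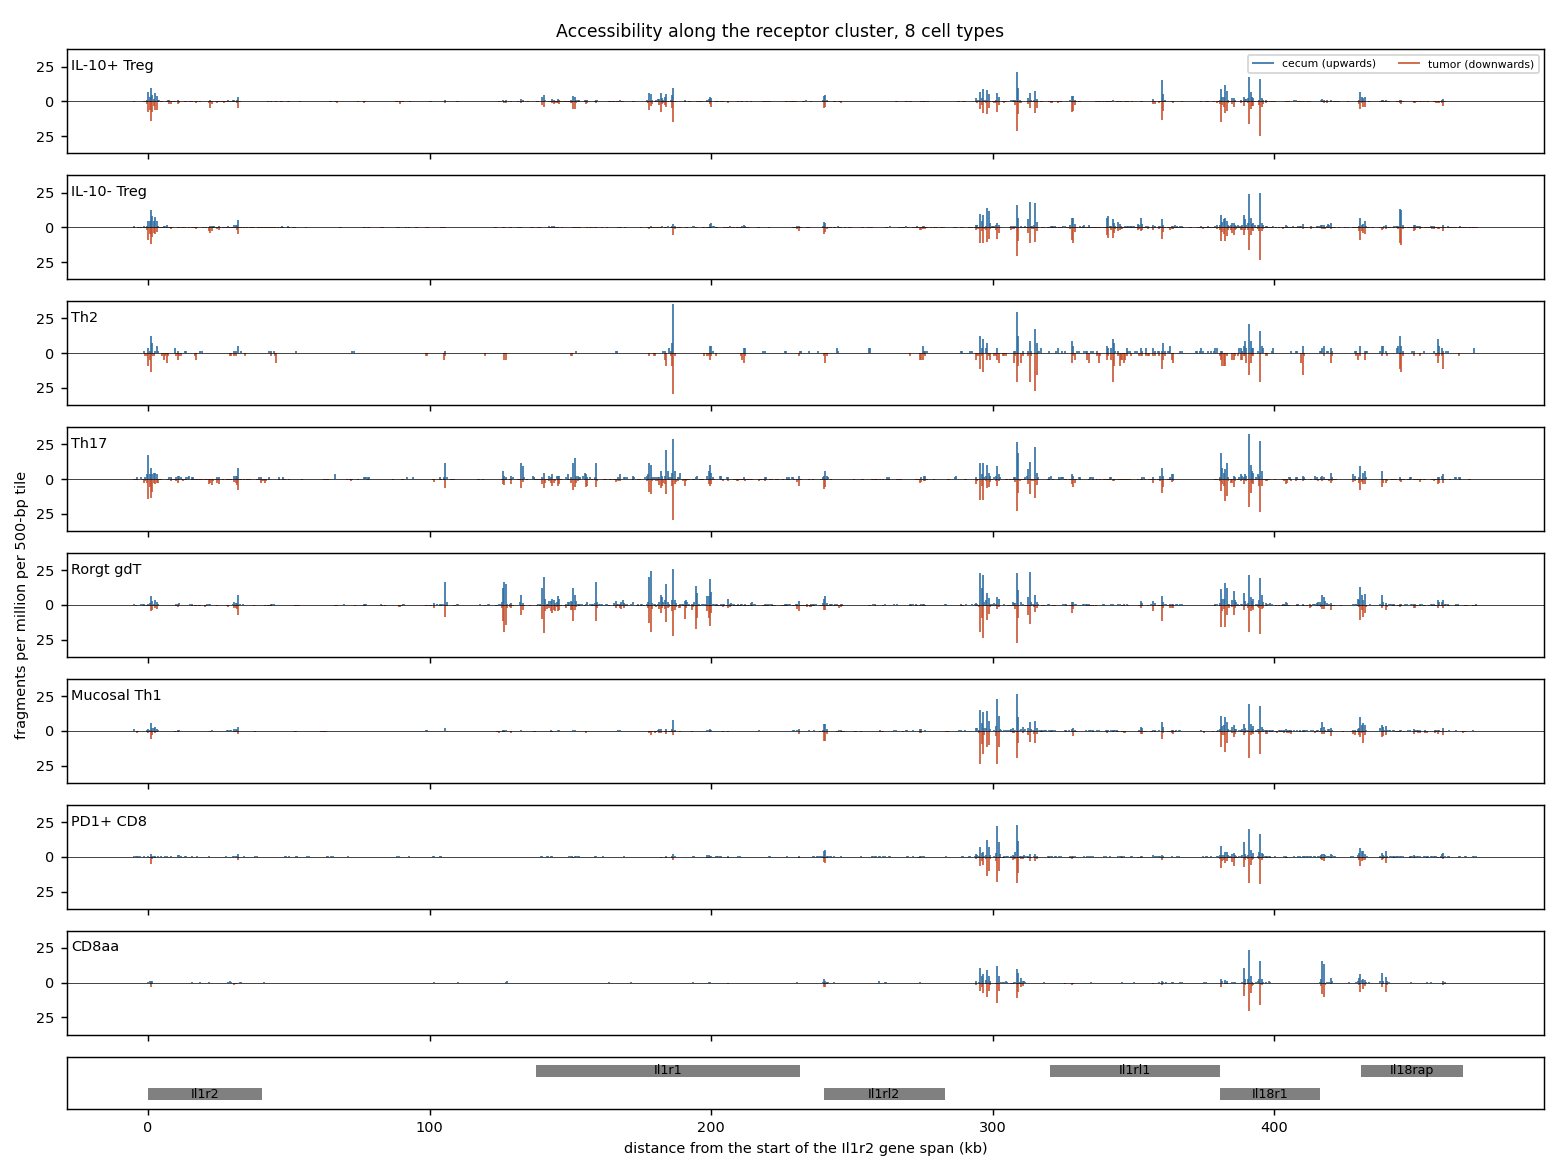
FPM in each 500-bp tile (y axis, cecum upwards in blue, tumor downwards in red) against the distance in kb from the start of the Il1r2 span (x axis) for 8 cell types, with the 6 gene spans as grey bars at the bottom. Peaks across Il1r1 appear in Rorgt gdT and Th17 cells and at lower height in IL-10+ Treg cells. At the fullest Il1r1 tile Th2 cells are highest (35.2 and 29.6 FPM). The fullest tile of the gene windows, inside Il18r1, is open in all 8 types.

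At the promoters the same division could be read from fewer fragments. Il1r1 promoter 1, printed above without capitals, had 47 and 46 fragments in Rorgt gdT cells (21.7 and 21.6 FPM) and 1 fragment in Cytotoxic gdT cells of each library, ratios of 6.03 (3.48 to 11.36) and 6.50 (3.95 to 11.84). IL-10+ Treg cells had 27 and 12 fragments there and IL-10- Treg cells 0 in both. The log2 ratios were -2.24 and -3.09 with 3 fragments in place of 0, and their intervals ended at -1.84 and -2.56. Promoter 2 of Il1r1 was led by the IL-10+ Treg label (4.20 and 5.50 FPM), with 24 and 15 fragments against 0 and 2 in IL-10- Treg cells. Thus both start sites of the IL-1 receptor gene were open in IL-10+ Treg cells and had 0 to 2 fragments in IL-10- Treg cells, whereas in Rorgt gdT cells promoter 1 had the higher level.

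Il1rl1 promoter 1, with its 5 GATA matches, gave 21 and 20 fragments in all labelled cells. IL-10- Treg cells gave 12 and 13 of them and IL-10+ Treg cells 0 in both. The log2 ratios were 2.93 and 1.03 with 3 fragments in place of 0, and their intervals began at 2.40 and 0.52. Th2 cells had 1 and 2 fragments (1.76 and 4.56 FPM). Promoter 2 of Il1rl1 had 4 and 10 fragments in all, too few to compare. The promoters of Il1r2 and Il18r1 were open more broadly. Il18r1 promoter 2 was higher in Rorgt gdT than in Cytotoxic gdT cells, with 18 against 10 fragments (1.32, 0.13 to 2.60) and 26 against 14 (1.87, 0.88 to 2.92). Its promoters 1 and 3 were higher in the tumor (2.30, 0.85 to 3.96, and 2.08, 0.70 to 3.62). In the cecum their intervals held 0 (0.99, -0.55 to 2.62, and 1.18, -0.20 to 2.65). Promoters 1 and 2 of Il18r1 overlap and share fragments. The Il1r2 promoter was highest in Tfh-like cells of the cecum (13.1 FPM) and in IL-10+ Treg cells of the tumor (15.8 FPM), and its lowest level was 1.86 and 3.18 FPM in CD8aa cells.

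The promoter of Il18rap was not separated between the Treg subsets. Its level was highest in Rorgt gdT cells of the cecum (9.71 FPM) and in CCR7+ CD8 cells of the tumor (12.4 FPM), with a median over types of 5.54 and 6.36 FPM. Between IL-10- and IL-10+ Treg cells the promoter ratios were 0.22 (-0.68 to 1.09) and 0.94 (-0.03 to 2.04), both with intervals that held 0, while the whole window gave 1.19 and 1.06 and the tile 13.9 kb after the start gave 3.67 and 3.39. The promoter intervals overlap those of the whole window in both libraries and that of the tile in the tumor. In the cecum the promoter interval lay below that of the tile (2.42 to 5.19). The tile was named for its high ratio and the window holds the promoter, so a difference between promoter and gene body was not tested.

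**Figure D4:**
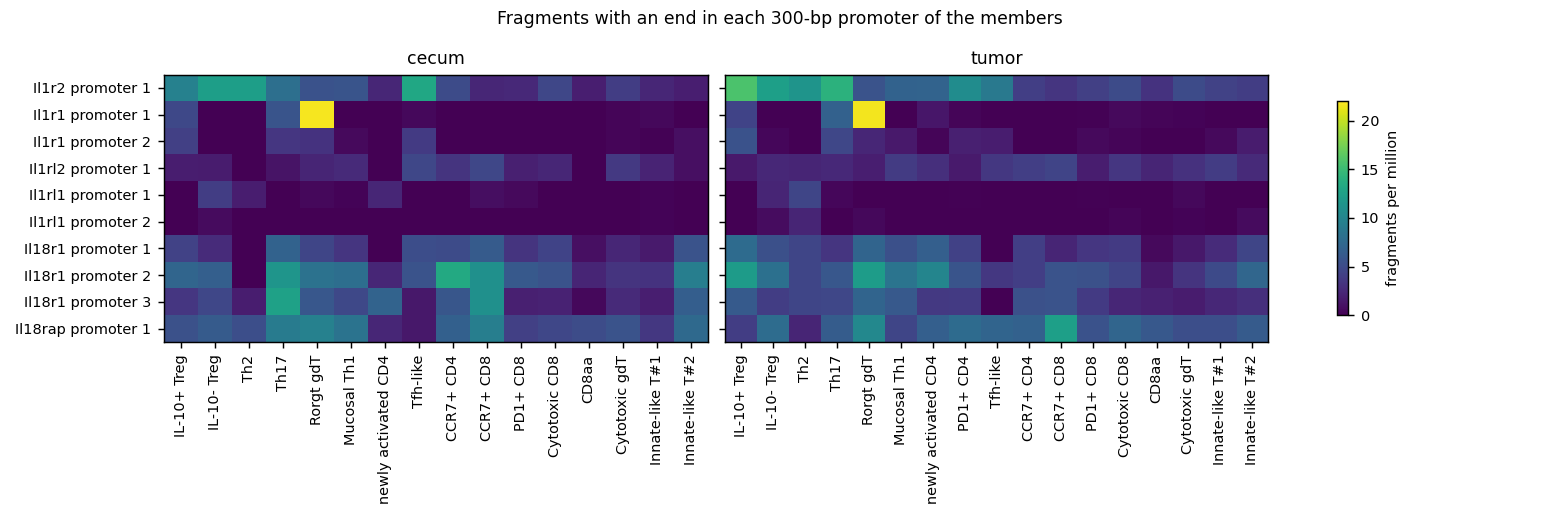
FPM of fragments with an end in each of the 10 RefSeq promoters of the cluster (rows, 300 bp each) by cell type (columns) for cecum (left) and tumor (right), on a linear color scale from 0. Il1r1 promoter 1 is bright in Rorgt gdT cells alone (21.7 and 21.6 FPM), and Il1rl1 promoter 1 is above 1 FPM only in IL-10- Treg, Th2 and, in the cecum, newly activated CD4 cells.

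Comparing tumor with cecum inside each cell type, the called receptor genes were higher in the tumor library when whole windows were counted. Of the 83 pairs of a member and a cell type with at least 50 fragments over both libraries, 16 were higher in the tumor and 0 lower. Over 212487 such pairs of all genes the shares were 5.80% and 5.91%, and the median log2 ratio of all genes lay between -0.02 and 0.02 in every type. Without the bases shared between windows 12 of 80 pairs were higher and 2 lower. The lower ones were Il18r1, counted without its promoters, in Rorgt gdT cells (-0.34, -0.65 to -0.04) and in the IL-10- Treg label (-0.32, -0.53 to -0.10).

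Treg cells carried several of these pairs. In IL-10+ Treg cells 4 of 6 members were higher in the tumor, or 3 without the shared bases, where Il18r1 was not separated (7.43% of 14307 genes): Il1r2 with 73.3 against 45.9 FPM (0.68, 0.40 to 0.95), Il1rl1 with 93.8 against 71.8 FPM (0.39, 0.16 to 0.61), Il18r1 with 107 against 89.1 FPM (0.26, 0.05 to 0.47) and Il18rap with 29.7 against 21.7 FPM (0.45, 0.03 to 0.87). In IL-10- Treg cells 2 of 6 were (8.84% of 14926 genes), Il1r2 with 64.6 against 52.7 FPM (0.29, 0.02 to 0.57) and Il18rap with 62.0 against 49.7 FPM (0.32, 0.04 to 0.61). Under 4 other ways of counting, 0 or 1 member was higher in this subset, and with the mean over cells the Il18rap ratio turned to -0.04. The decoy gene Il1r2 was also higher in tumor Th17 cells (99.6 against 64.3 FPM, 0.63, 0.20 to 1.08) and Cytotoxic CD8 cells (0.63, 0.09 to 1.19).

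Outside Treg and Th17 cells, Il1rl1 was higher in tumor Th2 cells (169 against 120 FPM, 0.50, 0.00 to 0.99), PD1+ CD8 cells (0.38) and Cytotoxic CD8 cells (0.42). Without the shared bases these 3 intervals held 0 (0.35, -0.18 to 0.88, in Th2, 0.22, -0.25 to 0.71, in PD1+ CD8 and 0.40, -0.14 to 0.95, in Cytotoxic CD8 cells). With whole windows the largest ratio with an interval above 0 was that of Il18rap in Tfh-like cells, 35.7 FPM in the tumor and 12.2 FPM in the cecum (1.55, 0.63 to 2.45). It came from 20 and 26 fragments, below the minimum of 50. Without the shared bases Il1rl1 in CCR7+ CD4 cells had a larger ratio (2.09, 0.51 to 3.93), from 13 and 5 fragments and thus also below it. Il1r1 was higher in Cytotoxic CD8 cells (0.70) and Innate-like T#1 cells (0.39), both types with low levels of this gene. With the mean over cells the latter ratio turned to -0.50. In Rorgt gdT and Th17 cells, in which Il1r1 was highest, its intervals held 0. Il18r1 differed in IL-10+ Treg cells alone among the 16 types with its whole window. There the interval held 0 without the shared bases, which hold its promoters (0.23, -0.04 to 0.49).

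**Figure D5:**
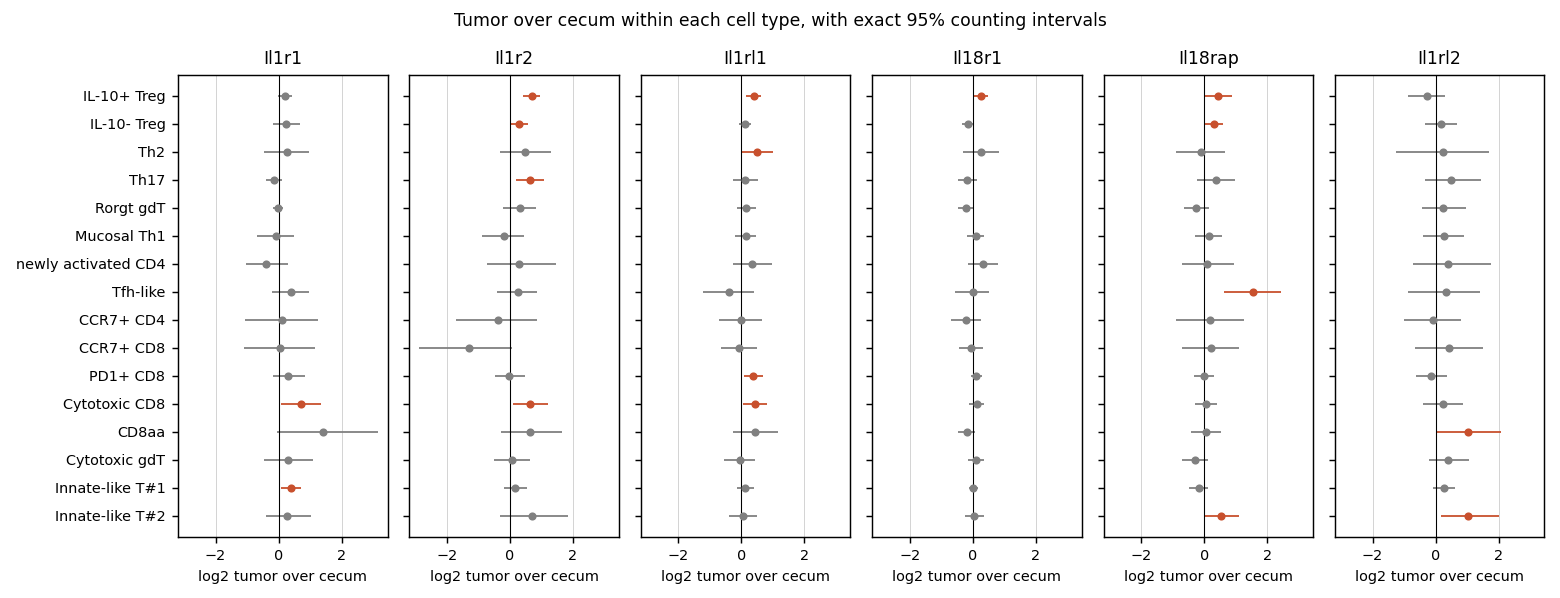
Log2 ratio of tumor over cecum (x axis) for each receptor gene (panels) in the 16 cell types with at least 50 cells in both libraries (y axis), with exact 95% counting intervals; red marks intervals above 0. No interval lies below 0, and the Il18rap value of Tfh-like cells (1.55) is the farthest to the right of the red ones.

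The pathway around the receptors was read from a list of 28 genes, of which 24 were counted. The list named ligands, antagonists, shared subunits, adaptors, kinases, NF-kB genes and processing enzymes. Those not counted were Il36a, Il36b, Il36g and Il36rn, so the IL-36 ligands of the Il1rl2 receptor were not covered. In the Treg contrast 2 of 20 genes with enough fragments were higher in IL-10- cells (Nfkbiz and Nfkb1, both of the NF-kB system) and 0 lower, close to the 7.54% and 5.94% of all genes, with list medians of 0.03 and 0.02 beside -0.01 and -0.01 for all genes. In the Th2 contrast 3 of 17 were higher (Nfkbia, Nfkbiz and Nfkb1) beside 2.23% of all genes, with medians of 0.33 and 0.22 beside -0.05 and -0.02. Nfkb1, which encodes an NF-kB subunit, was past 2-fold there, at 575 and 478 FPM against 217 and 230 FPM (1.40, 1.22 to 1.58, and 1.06, 0.79 to 1.32). In the Th17 contrast Nfkb1 alone was called among 18 genes (3.27% of all genes were higher).

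Between gamma-delta labels 6 of 18 genes of the list were higher in Rorgt gdT cells and 4 lower, beside 9.35% and 12.4% of all genes, with list medians of -0.20 and 0.04 beside -0.08 and -0.10. The higher ones included Il1rap, the shared chain of the IL-1 and IL-33 receptors (0.82, 0.46 to 1.18, and 0.42, 0.09 to 0.73), and Irak3, an inhibitory kinase-like protein of the pathway, which was past 2-fold with 151 and 143 FPM against 52.2 and 54.9 FPM. Il1a, Tollip, Ikbkb and Casp1 were lower. In the CD8 contrast 1 of 19 genes was higher and 1 lower, close to the 5.46% and 5.71% of all genes. Casp1, the protease that activates IL-1 and IL-18, was higher past 2-fold in PD1+ CD8 cells (1.40, 0.33 to 2.68, and 1.24, 0.23 to 2.47) and Nfkbia was lower. Il1rap had a median over types of 49.9 and 56.7 FPM. Myd88, the adaptor of the signaling receptors of this family, had medians of 109 and 98.4 FPM and was called in no contrast.

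Genes elsewhere in the genome were ranked by how closely their levels followed each member over the 16 types, by the smaller Pearson r of the 2 libraries among at least 15199 genes. Il1r1 was followed most closely by Ankrd6 (r = 0.947 in the cecum and 0.927 in the tumor), Krt28 (0.916 and 0.935) and Plcb4 (0.901 and 0.898). For Il1r2 they were Mettl24 (0.919 and 0.902), Areg (0.889 and 0.934), which encodes the growth factor amphiregulin, and Batf (0.891 and 0.877), which encodes a transcription factor of the AP-1 family. For Il1rl1 they were Ccr8 (0.853 and 0.900), a chemokine receptor gene known from tumor Treg cells, Mcu (0.890 and 0.847) and 4932438H23Rik (0.873 and 0.837). Il18rap was followed by Rora (0.767 and 0.796), Ntng2 (0.747 and 0.793) and Hk2 (0.731 and 0.752), Il18r1 by Cfap45 (0.701 and 0.742), Teddm2 (0.734 and 0.693) and Lmna (0.685 and 0.781), and Il1rl2 by Srgap1 (0.896 and 0.737), Nhsl2 (0.750 and 0.727) and Tiam1 (0.722 and 0.712).

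Among the members themselves, the IL-1 receptor genes Il1r1 and Il1r2 had r = 0.761 in the cecum and 0.782 in the tumor. Il18r1 and Il18rap, which form 1 receptor, had r = 0.544 and 0.560. Il18r1 and Il1rl1 had r = 0.658 and 0.836, and these 2 windows share bases. Between the libraries the levels of a gene correlated with r = 0.985 for Il1r1, 0.971 for Il1rl1, 0.909 for Il1r2, 0.830 for Il18r1, 0.742 for Il18rap and 0.672 for Il1rl2. All of these correlations are over 16 cell types that come from the same 2 libraries and differ in depth, and they are given as descriptions.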

How the data were processed

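Fragments had been called by the authors in Cell Ranger ARC 2.0.0 against mm10 (GRCm38), per the file headers. The deposited lines are unique fragments with a barcode and a raw count of read pairs (4.29 per fragment in the cecum, 3.11 in the tumor), neither normalized nor filtered. Each fragment was counted once. The RNA counts were not analysed here, and the sources used here do not say whether doublets were removed. Positions came from RefSeq spans and promoters (GRCm38.p6), which hold no exons. Log2 ratios of single genes and tiles used counts with exact conditional intervals, and levels have exact Poisson intervals. A count of 0 was replaced by 3 in a ratio. Genes were tested with at least 50 fragments over both labels in each library and tiles with at least 20.

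Members and lists were chosen with earlier results of these data known. Named beside the members were pathway genes past 2-fold with Il1rap and Myd88, 3 similar genes per member, the fullest tile of each window and the highest and lowest 3 tiles per contrast, of which the called ones are given. The tile 36.3 kb before Il1rl1 was among them. PD1+ CD4 cells were added after their values were seen. Alternatives were other cells, windows, scaling, pooling, fragment lengths, tile offsets and minimums. Scripts used Python 3.11.15, pandas 2.3.3, pyarrow 21.0.0, numba 0.67.0, numpy 2.4.6, matplotlib 3.10.9 and scipy 1.17.1 and were tested on simulated data. Some labels and marker genes are not reported here.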

Additional observations from a re-analysis of the deposited data

How the results depend on the processing

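Of the ratios between cell types, 470 kept their direction and moved by no more than their counting error under the alternatives, 63 moved and 7 reversed, and of the tumor over cecum ratios 141 kept, 10 moved and 2 reversed. Most reversals came from counting 1 kb around either gene end. By its construction this count leaves out the promoters of Il1r2, Il1r1 and Il1rl1, which lie inside their spans. At the Il1rl1 end it covers the Il18r1 promoters instead. With gene ends counted, the IL-10- over IL-10+ Treg ratio in the tumor was 2.43 for Il1r1 and -0.43 for Il1rl1. Th2 over Mucosal Th1 was -1.96 for Il1rl1 (cecum) and -0.44 for Il1r1 (tumor). Rorgt over Cytotoxic gdT was -0.18 for Il1r2 (cecum), and PD1+ over CCR7+ CD8 was -0.20 for Il18rap (cecum). With the mean over cells, Il18rap had -0.46 in the last contrast (cecum), Il1r1 in Innate-like T#1 had -0.50 and Il18rap in IL-10- Treg cells -0.04 for tumor over cecum. The cause of these was not tested.

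Counts of members moved as follows. In the gene-end window 0 members were higher and 0 lower in IL-10- Treg cells (2 and 1 in the report), 0 higher in Th2 (3) and 1 in Th17 cells (2). Of the comparison of tissues within IL-10- Treg cells (2 higher in the tumor), 1 was left without cells over 3 times the median depth, 0 with the gene span only, 1 in the gene-end window and 0 with fragments shorter than 150 bp. With these short fragments 3 were higher in Rorgt gdT cells (5), with every end counted 1 was higher in PD1+ CD8 cells (0), and with the gene span only or without shared parts 4 kept 1 leading type (2). The cause was not tested. Tiles with 1 leading type were 22 with at least 50 fragments and 21 with short fragments (44), tiles higher in IL-10- Treg cells 1 and 1 (6), and tiles lower 1 and 0 (4). The first leaves fewer tiles and the second fewer fragments. Over all contrasts and alternatives 23 tile counts moved and 32 kept. Of those that moved, 9 did so with at least 50 fragments and 9 with short fragments. Another 3 moved without cells over 3 times the median depth and 2 with tiles shifted by 250 bp. The genome-wide shares past 2-fold also depend on the minimum. In the Treg contrast 187 genes were higher with at least 50 fragments, 40 with at least 200, 319 with none and 94 with a pseudocount of 5 FPM. The mean over cells gives no interval and so no count of members called in a contrast, and with it 3 members kept 1 leading type (2).

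No paired analysis was possible because each tissue has 1 library. Counting error is the one error given, and variation between mice is not covered by it.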
